A study of Capra hircus with 12 samples.

Results

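Palmera goats were compared with Majorera goats across both diets, 6 mammary gland libraries against 6. The genes compared were those whose expected counts could be read for all 12 libraries once the 6 deposited tables were joined by gene symbol, which gave 1408 genes of the 4974 listed in any table. Both are dairy goat breeds of the Canary Islands, and the study describes Majorera as tolerant and Palmera as susceptible to seasonal weight loss, the loss of body weight when pastures dry out. MC was Majorera on an adequate lactation diet (Majorera Control), ME was Majorera on a restricted diet of wheat straw with a vitamin and mineral supplement (Majorera Restricted), and PC (Palmera Control) and PE (Palmera Restricted) were the Palmera groups on the same diets. Each group had 3 goats with 1 library each. All goats were in their peak of lactation, had 3 lactations, and were biopsied in the left side of the udder at the end of the feeding trial. Goats were housed by diet, with both breeds in a pen, and the Palmera groups were lighter than the Majorera groups at the start, so that breed and body size cannot be told apart.

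The tables limit what the join can show. Every table held only genes with an unadjusted p under 0.05 between its own pair of groups, so that a gene entered the join because it differed between some groups. Of the 1408 genes, 730 were listed for a contrast of the breeds on the same diet, 101 of them for both diets, and 678 for neither. The shares below are therefore shares of genes already selected, and they do not describe the transcriptome.

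The lactating mammary gland is built of secretory epithelial cells that make caseins, lactose and fat, of myoepithelial cells that eject the milk, and of a stroma of fibroblasts, adipocytes, vessels and resident immune cells. Fibroblasts lay down collagens and other matrix proteins, and macrophages take up debris and milk fat and become more frequent when secretion stops. Milk also carries proteins of host defence, among them secreted ribonucleases, lysozyme, lactoperoxidase and the immunoglobulins that the epithelium transports from the blood. A bulk biopsy sums all of these cells, so that fewer cells of a type and less RNA per cell cannot be told apart.

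Libraries had 29.4 to 54.6 M (mega) mapped reads, and the joined genes held between 14.3% and 73.2% of them. Levels are given as CPM, the count per M reads of library size after scaling by TMM (trimmed mean of M values) factors of 0.64 to 2.00. The highest factor belonged to ME replicate 2, which together with PC replicate 3 stood apart from the other libraries, so that counts are also given without both. Milk protein genes marked all 12 libraries as lactating mammary tissue, with the 6 measured milk protein genes summing to between 76336 CPM (in ME) and 625225 CPM (in PC).

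Breed left few genes past the threshold. At an adjusted p under 0.05, 2 of the 1408 genes (0.142%) differed between the breeds: the ribonuclease gene RNASE1, lower in Palmera, and the transcribed pseudogene LOC102190867, higher in Palmera. RNASE1 also passed the further limits of the study, an absolute Log2FC above 1.5 and over 100 counts in a library, which LOC102190867 did not. The Log2FC is the log2 fold change of Palmera over Majorera with diet as a covariate, tested two-sided by quasi-likelihood in edgeR, with Benjamini-Hochberg adjustment over 15221 genes. By sign alone, 628 genes (44.6%) were higher and 780 (55.4%) lower in Palmera. Without adjustment, 319 genes (22.7%) had a p under 0.05, with 101 higher (7.17%) and 218 lower (15.5%) in Palmera. In the same fit, diet differed at an adjusted p under 0.05 for 435 genes (30.9%) and at an unadjusted p under 0.05 for 1064 genes (75.6%). The median absolute Log2FC was 0.42 for breed and 1.01 for diet, and 9 in 10 genes lay under 1.46 for breed and under 2.26 for diet.

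Leaving out 1 library changed the lower side most. Without ME replicate 2, 79 genes were higher and 136 lower in Palmera at an unadjusted p under 0.05, and without both ME replicate 2 and PC replicate 3 the counts were 106 and 118. Of the 319 genes, 139 stayed at an unadjusted p under 0.05 whichever single library was left out, 47 of them higher and the rest lower in Palmera. The share of higher genes among those at an unadjusted p under 0.05 was 31.7% with the main scaling, 20.9% with mapped reads alone and 47.3% without both libraries. The median Log2FC of all joined genes moved from -0.08 to -0.20 when only mapped reads scaled the libraries, and a single gene's direction is to be read against that shift.

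RNASE1 encodes a secreted ribonuclease of the pancreatic type, which cuts RNA. Its level was 179.7, 170.4 and 567 CPM in the 3 MC libraries and 1.22, 1.31 and 0.881 CPM in PC. Under restriction it was 0.273, 0.561 and 0.211 CPM in ME and 0.0409, 0.034 and 0.0561 CPM in PE. Within each diet every Palmera library lay below every Majorera library, whereas PC lay above ME, so that the breeds overlapped when the diets were pooled. The means were 306 ± 226 CPM in MC, 1.14 ± 0.228 in PC, 0.349 ± 0.187 in ME and 0.0437 ± 0.0113 in PE (SD, n = 3). The pooled Log2FC was -7.61 (SE 0.75, adjusted p = 0.00126), and the gene stayed called without each of the 12 libraries in turn (Log2FC -7.83 to -6.77). An exact permutation test of breed within diets gave p = 0.005 (two-sided), the smallest that the 400 assignments allow.

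RNASE1 was lower in Palmera in both diets, with the larger fitted difference on the control diet. The Log2FC of PC over MC was -8.06 (SE 0.58, adjusted p = 6.13e-05), and RNASE1 was the only gene called by the quasi-likelihood test between the control groups. The Log2FC of PE over ME was -2.94 (SE 0.79, adjusted p = 0.71), and the interaction of breed and diet had an unadjusted p of 0.00265 (adjusted p = 1). In the restricted groups the gene had few reads, below 1 CPM in every ME and PE library. DESeq2, which called 8 genes for breed (0.568%), gave no p for RNASE1. RefSeq (ARS1.2) lists the gene, GeneID 102174664, as LOC102174664 between RNASE6 and LOC102175026, beside other genes of the ribonuclease family, and the counting may have split reads between close copies. RNASE1 was not called with a dispersion prior from the joined genes (adjusted p = 0.116) or without the diet covariate (0.856).

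The gene was also the target of a quantitative PCR assay of the study. Its primer pair is shown because it fixes which stretch of the transcript that assay reads, with no capitals since no base is singled out.
RNASE1 forward primer: tctggaagaggaggattgc
RNASE1 reverse primer: gctggagaaaactgggtctg
The forward primer has 19 bases and the reverse primer 20 bases. No PCR value was used here.

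LOC102190867 is annotated by RefSeq as a transcribed pseudogene that lies between LRCH2 and PLS3. No read was assigned to it in 5 of the 6 Majorera libraries, and the sixth, ME replicate 3, had 0.0633 CPM. In Palmera it had 0.594, 0.125 and 0.377 CPM in PC and 0.695, 1.16 and 0.561 CPM in PE, so that all 6 Palmera libraries lay above all 6 Majorera libraries. Over the libraries of each breed it held 2.93 expected counts in Majorera and 133 in Palmera, a ratio of rates of 50.5 (exact 95% interval 16.9 to 248, for counting error only). The fitted Log2FC was 5.47 (SE 0.69, adjusted p = 0.0118). The call held in 8 of the 12 fits that left out 1 library. It was lost without MC replicate 1 (adjusted p = 0.0597), MC replicate 3 (0.0522), ME replicate 1 (0.0592) or ME replicate 3 (0.103), and without both libraries that stood apart (0.0818). The same held with a dispersion prior from the joined genes (0.125) and without the diet covariate (0.0820). Both diets had the same direction, with a fitted Log2FC of 6.90 (SE 1.58) on the control diet and 5.23 (SE 0.90) under restriction. Every MC library was at 0, so that the size of the control value is not a measured ratio.

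**Figure D1:**
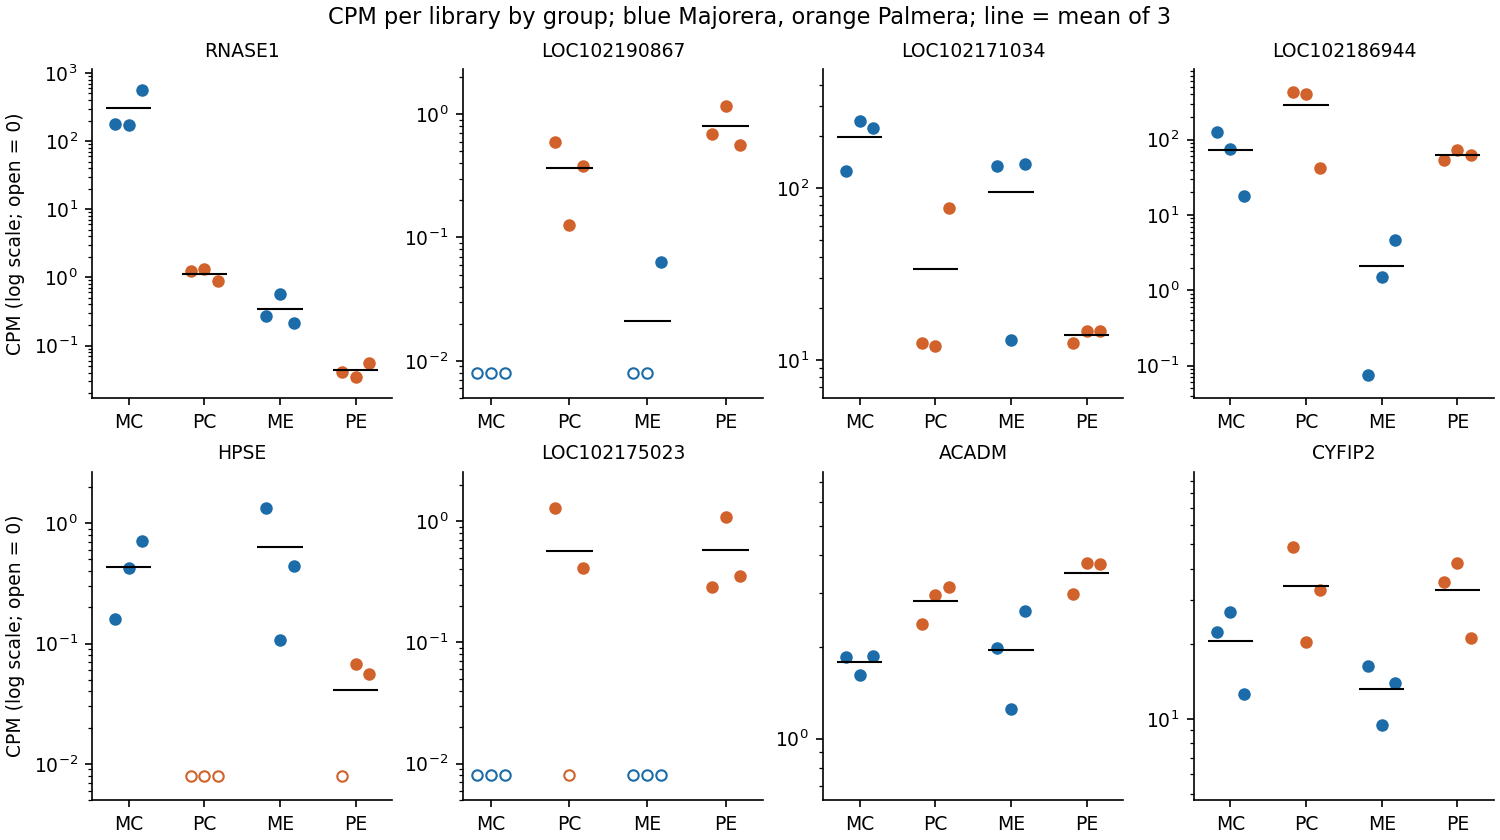
CPM of 8 genes in each of the 12 libraries on a log axis, by group (MC, PC, ME, PE), with Majorera in blue, Palmera in orange, a line at the mean of 3 libraries and open points for libraries at 0. RNASE1 is above 150 CPM only in MC and lies lower in Palmera than in Majorera within each diet, and LOC102190867 and LOC102175023 are at or near 0 in Majorera.

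Other loci given by a LOC symbol had a large Log2FC without passing the threshold. LOC102171034, a transcribed pseudogene between SPATA19 and OPCML, had 125, 246 and 223 CPM in MC and 134, 13.1 and 138 CPM in ME. In Palmera it had 12.5, 12 and 76.8 CPM in PC and 12.5, 14.7 and 14.8 CPM in PE. In all, 5 Majorera libraries lay above all Palmera libraries, while ME replicate 2 was at the level of Palmera (Log2FC -2.66, SE 0.55, adjusted p = 0.536). Without ME replicate 2 and PC replicate 3 it was one of the 2 genes called, the other being RNASE1. For this gene these were the lowest Majorera library and the highest Palmera library. They were left out after the data were seen, so that this call is not separate support. DESeq2 called it with all libraries (adjusted p = 0.00368). The study had reported this gene higher in MC than in PC.

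LOC102186944, a protein-coding gene by the RefSeq annotation, next to NLGN4X, was higher in Palmera by its values. The study describes it as an allergen gene and had reported it higher in PE than in ME. It is given here across both diets. LOC102186944 had 124, 75.7 and 17.9 CPM in MC against 428, 399.9 and 41.7 CPM in PC, and 0.0745, 1.52 and 4.64 CPM in ME against 54.1, 73.2 and 62.4 CPM in PE. The restricted groups did not overlap, with every PE library more than 10 times above the highest ME library, and the control groups did. Its Log2FC was 3.42 (SE 0.87, adjusted p = 0.705), with 2.00 (SE 0.96) on the control diet and 4.92 (SE 1.11) under restriction (interaction, unadjusted p = 0.0512).

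LOC102175023, a long non-coding RNA gene beside UACA, was at 0 in all 6 Majorera libraries. In Palmera it had 1.28, 0 and 0.409 CPM in PC and 0.286, 1.09 and 0.356 CPM in PE, and PC replicate 2 was the 1 Palmera library at 0. Its 119 counts in Palmera made it at least 45.2-fold higher than Majorera, taking 3 counts over the 6 Majorera libraries as the floor (unadjusted p = 0.000693, adjusted p = 0.591; DESeq2 adjusted p = 0.00116). Of the 1408 genes, 4 were at 0 in all Majorera libraries and 8 in all Palmera libraries.

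A pair of neighbouring genes had a positive Log2FC of similar size. PTPRQ, a receptor-type phosphatase gene, and LOC102172692 lie next to each other in RefSeq, close to the muscle regulators MYF5 and MYF6. PTPRQ had 0 to 0.0497 CPM (median 0) in Majorera and 0 to 0.919 CPM (median 0.207) in Palmera (Log2FC 4.05, SE 1.03, unadjusted p = 0.00158). LOC102172692 had 0 to 0.274 CPM (median 0.0352) in Majorera and 0.0943 to 3.1 CPM (median 0.496) in Palmera (Log2FC 3.71, SE 0.89, unadjusted p = 0.000932). Both were highest in PE replicate 2, at 0.919 and 3.1 CPM, and lowest among Palmera in PC replicate 3, and both overlapped between the breeds. The breeds' count totals were 4 and 59 for PTPRQ and 19 and 180 for LOC102172692. DESeq2 called LOC102172692 (adjusted p = 0.0373) and did not call PTPRQ (adjusted p = 0.313).

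All 6 libraries of one breed lay beyond all 6 of the other for 13 genes (0.923%), with 12 lower in Palmera (0.852%) and LOC102190867 the 1 that was higher (0.071%). For diet the same count was 260 genes (18.5%). All 13 came from the 101 genes listed for the breeds on both diets. When mapped reads alone scaled the libraries the count was 6, and without ME replicate 2 and PC replicate 3, which leaves fewer libraries to compare, it was 22.

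Several of the lower genes without overlap encode receptors, transporters or signalling proteins. ACVRL1 encodes a receptor kinase of the TGF-beta family on endothelial cells. It had 4.29 to 7.64 CPM (median 5.3) in Majorera and 2.58 to 3.75 CPM (median 3.25) in Palmera, a 1.71-fold ratio of means (Log2FC -0.79, SE 0.15, unadjusted p = 0.000166). SLC12A4, a potassium and chloride cotransporter, had 8.37 to 12.3 CPM (median 11.4) in Majorera and 5 to 7.95 CPM (median 7.05) in Palmera (Log2FC -0.70, SE 0.14, unadjusted p = 0.000131). DOCK11, an activator of the GTPase CDC42, had 3.43 to 5.71 CPM (median 4.07) in Majorera and 2.28 to 3.16 CPM (median 2.59) in Palmera (Log2FC -0.67, SE 0.15, unadjusted p = 0.000414). These differences were under 1 on the log2 scale. For SLC12A4 it was -0.70 (SE 0.20) on the control diet and -0.71 (SE 0.20) under restriction, for DOCK11 -0.65 (SE 0.22) and -0.69 (SE 0.21).

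HPSE encodes heparanase, the enzyme that cleaves heparan sulphate chains of the matrix. It had 0.16, 0.422 and 0.706 CPM in MC and 1.34, 0.107 and 0.443 CPM in ME, and it was at 0 in the 3 PC libraries and in PE replicate 1, with 0.0681 and 0.0561 CPM in the other PE libraries. The breeds held 121 and 5 counts in all (Log2FC -4.46, SE 0.85, unadjusted p = 0.000125, adjusted p = 0.4), and the gene was called when ME replicate 2 was left out (adjusted p = 0.0326). LOC102181479, a transcribed pseudogene between GPR174 and IGSF1, had 18 to 45.1 CPM (median 30.3) in Majorera and 5.91 to 15.7 CPM (median 10.8) in Palmera (Log2FC -1.50, SE 0.26, unadjusted p = 5.76e-05). With all libraries DESeq2 called both HPSE (adjusted p = 0.00388) and LOC102181479 (adjusted p = 0.00177).

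The remaining lower genes without overlap were mostly of low level. SFXN3, a mitochondrial serine transporter, had 0.718 to 2.23 CPM (median 1.05) in Majorera and 0.356 to 0.692 CPM (median 0.438) in Palmera (Log2FC -1.40, SE 0.32, unadjusted p = 0.00061). UBE2E2, a ubiquitin-conjugating enzyme, had 0.494 to 1.02 CPM (median 0.67) and 0.22 to 0.344 CPM (median 0.293) in the same order (Log2FC -1.22, SE 0.26, unadjusted p = 0.000323). PTPRT, a receptor-type tyrosine phosphatase, had 0.0844 to 0.322 CPM (median 0.188) and 0 to 0.0818 CPM (median 0.0357) (Log2FC -2.13, SE 0.51, unadjusted p = 0.00091). C29H11orf82, which RefSeq names DDIAS and which is known in human cells as a suppressor of apoptosis after DNA damage, had 0.127 to 0.442 CPM (median 0.196) and 0 to 0.125 CPM (median 0.0327) (Log2FC -2.50, SE 0.55, unadjusted p = 0.000438). HJURP, the chaperone that places the centromeric histone CENP-A, had 33 counts over the Majorera libraries and 2 over the Palmera libraries, a ratio of rates of 14.5 (exact 95% interval 3.7 to 124). Counts this low rest on few reads, and each of these genes had an adjusted p above 0.05.

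Outside the rule for named genes, VASH2 and VIM complete the 13 and were chosen after their values were seen. VASH2, a tubulin carboxypeptidase, had 1.17 to 2.46 CPM (median 1.79) in Majorera and 0.282 to 1.06 CPM (median 0.911) in Palmera (Log2FC -1.12, SE 0.26, unadjusted p = 0.000841). VIM, the intermediate filament of mesenchymal cells, was the most abundant of the 13, with 129.6 to 286 CPM (median 130.5) in Majorera and 69.6 to 115 CPM (median 99) in Palmera (Log2FC -0.74, SE 0.22, unadjusted p = 0.00421). ME replicate 2 was the highest Majorera library for VIM and also the library with the highest levels of macrophage genes. The part of macrophages in the VIM difference was not tested.

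**Figure D2:**
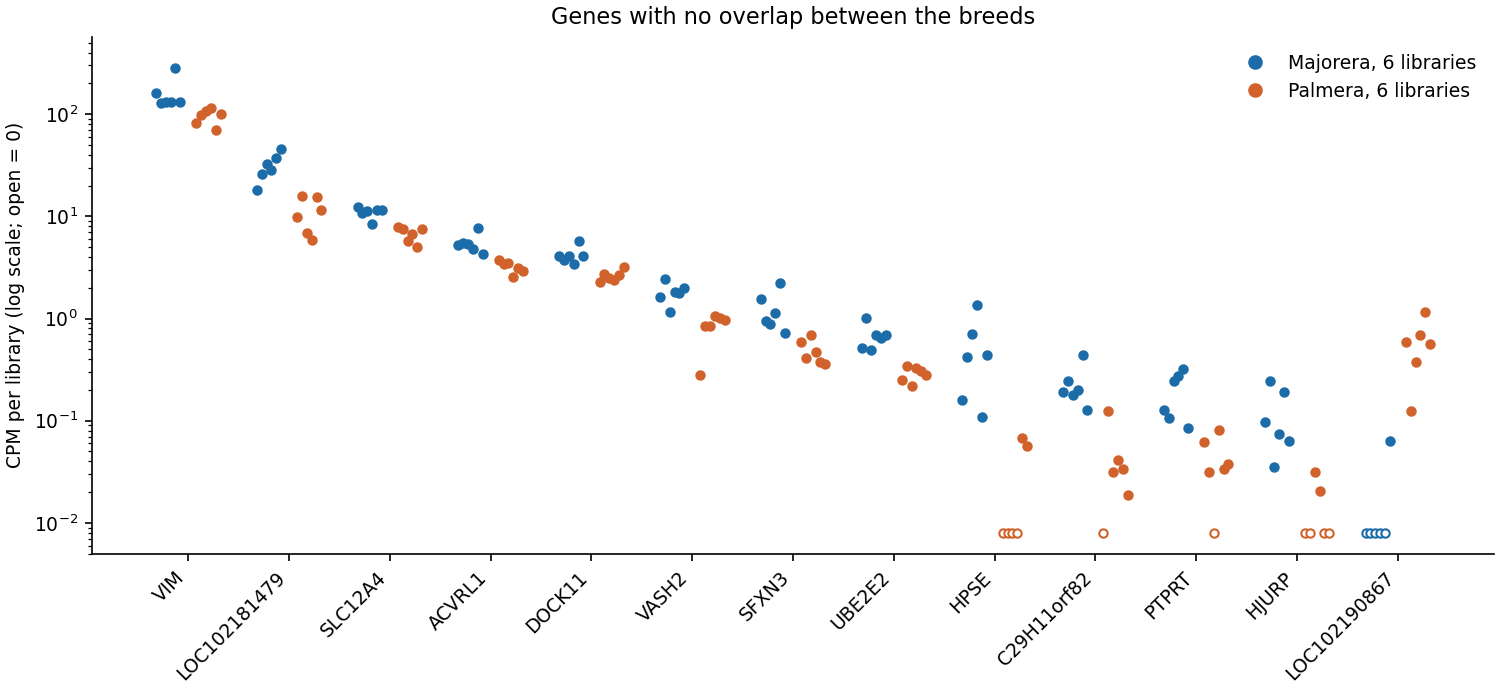
CPM per library on a log axis for the 13 genes whose 6 Majorera libraries (blue) and 6 Palmera libraries (orange) do not overlap, ordered by the Majorera median, with open points for libraries at 0. In 12 genes Palmera lies below Majorera, with the smallest Log2FC for DOCK11 (-0.67), SLC12A4 (-0.70), VIM (-0.74) and ACVRL1 (-0.79), and in LOC102190867 it lies above.

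Counting the overlap within each diet gave 32 genes (2.27%) in which Palmera lay on the same side of Majorera in both diets, 9 higher (0.639%) and 23 lower (1.63%), and 20 genes (1.42%) in which it lay on opposite sides. Besides RNASE1 and the genes above, the lower set held SRRM5, with 0.0633 to 0.353 CPM (median 0.189) in Majorera and 0 to 0.0943 CPM (median 0.0196) in Palmera (Log2FC -2.34, SE 0.52, unadjusted p = 0.000523). KIAA0101, a PCNA-binding protein of dividing cells that was chosen after its values were seen, had 35 counts in Majorera and 2 in Palmera (Log2FC -3.52, SE 0.81, unadjusted p = 0.000702). HJURP, C29H11orf82 and KIAA0101 were all under 1 CPM in every library.

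Enzymes and a hormone receptor of metabolism stood among the genes with a higher level in Palmera and the smallest p. ACADM encodes medium-chain acyl-CoA dehydrogenase, an enzyme of mitochondrial fatty acid oxidation. It had 1.25 to 2.62 CPM (median 1.87) in Majorera and 2.38 to 3.78 CPM (median 3.07) in Palmera (Log2FC 0.76, SE 0.18, unadjusted p = 0.000805), did not overlap within either diet, and had a Log2FC of 0.67 (SE 0.26) on the control diet and 0.85 (SE 0.25) under restriction. MAT1A, the methionine adenosyltransferase best known from liver, had 0 to 0.0955 CPM (median 0.0337) in Majorera and 0.0314 to 0.511 CPM (median 0.14) in Palmera (Log2FC 2.06, SE 0.47, unadjusted p = 0.000665). GCGR, the glucagon receptor, was at 0.409, 0.442 and 0.337 CPM in PE and at or below 0.0706 CPM in the other 9 libraries (Log2FC 2.73, SE 0.70, unadjusted p = 0.00161). Its higher level was thus that of PE, with a Log2FC of -0.64 (SE 1.19) on the control diet and 3.63 (SE 0.65) under restriction (interaction, unadjusted p = 0.0132).

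CYFIP2, a subunit of the WAVE complex that drives actin branching, had 9.47 to 26.9 CPM (median 15.1) in Majorera and 20.3 to 48.9 CPM (median 33.9) in Palmera (Log2FC 1.02, SE 0.26, unadjusted p = 0.00181). MC replicates 1 and 2 lay above PC replicate 2 and PE replicate 3, and the other Palmera libraries lay above all of Majorera. LOC102173234, which RefSeq now names TTN for titin of striated muscle, had 0.273 to 0.914 CPM (median 0.399) in Majorera and 0.58 to 2.75 CPM (median 0.974) in Palmera (Log2FC 1.47, SE 0.32, unadjusted p = 0.00038). LOC102177798, an uncharacterised protein-coding gene near LPL, had 0 to 0.316 CPM (median 0.0564) and 0.189 to 1.38 CPM (median 0.256) (Log2FC 2.61, SE 0.62, unadjusted p = 0.000917). CDH20, a cadherin, was at 0 in 5 Majorera libraries and held 1 count against 24 in Palmera, a ratio of rates of 27.4 (exact 95% interval 4.46 to 1125). Among the lower genes of this rule, SLC4A11, a membrane transporter of the bicarbonate transporter family, had 0.192 to 0.869 CPM (median 0.575) in Majorera and 0.0681 to 0.252 CPM (median 0.103) in Palmera (Log2FC -1.88, SE 0.39, unadjusted p = 0.000259).

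LOC symbols and transcribed pseudogenes took a larger share of the genes with the smallest p than of all joined genes, without a test of that difference. Of the 24 genes with an unadjusted p under 0.001, 7 (29.2%) had a LOC symbol in the tables, among them LOC102173234 (TTN), and 3 (12.5%) were transcribed pseudogenes by RefSeq. Over all joined genes the shares were 17.3% (243 of 1408) and 0.852% (12 of 1408). Low levels were also frequent. Of the 319 genes with an unadjusted p under 0.05, 126 averaged under 1 CPM and 38 averaged at least 10 CPM, against 428 and 262 of all 1408.

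The differences between the breeds in each diet, which share no library, pointed the same way in 765 of the 1408 genes (54.3%). Among the 101 genes listed for both diets the share was 76.2% (77 genes), of which 21 were higher and 56 lower in Palmera. Each of the diets had 1 gene at an adjusted p under 0.05 (0.071%), with 238 genes (16.9%) at an unadjusted p under 0.05 on the control diet and 401 (28.5%) under restriction. The interaction had 1 gene (0.071%), with 227 (16.1%) at an unadjusted p under 0.05. Of the 319 genes with a pooled breed difference at an unadjusted p under 0.05, 293 had the same sign in both diets. These genes were selected by the pooled difference of the same libraries, which itself favours equal signs. Their count is therefore no separate support for agreement between the diets.

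**Figure D3:**
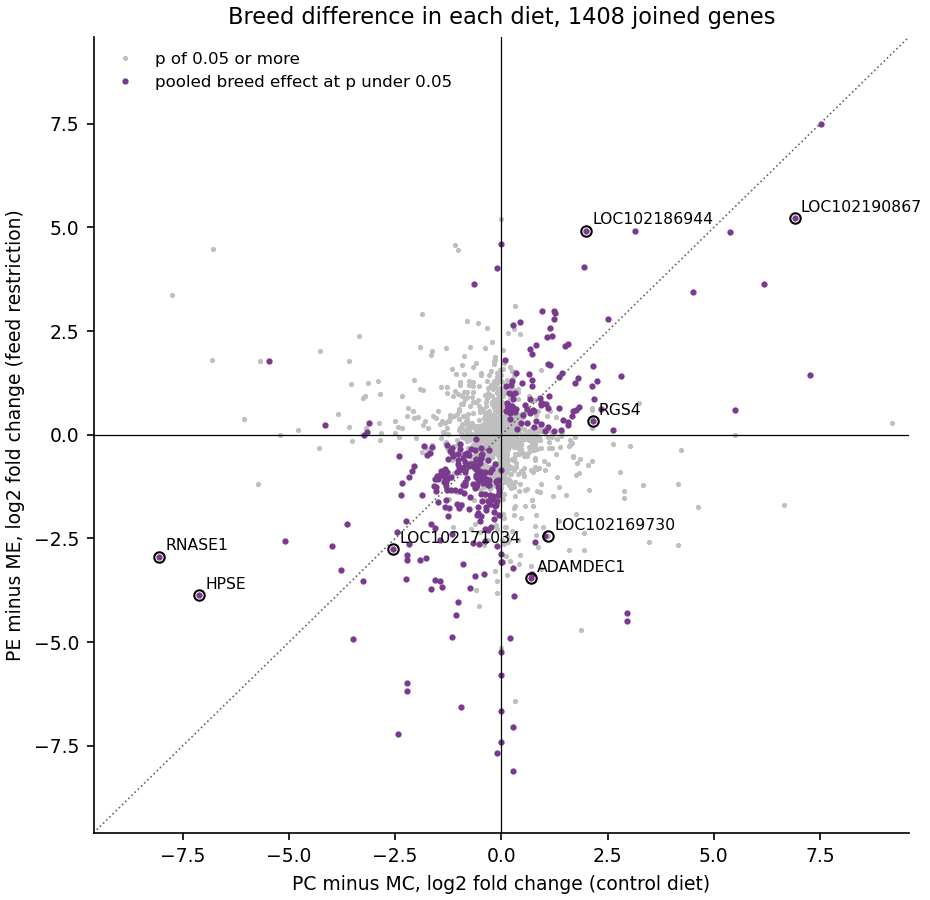
Log2FC of PC over MC on the control diet (x axis) against PE over ME under feed restriction (y axis) for 1408 genes, in purple where the pooled breed difference had an unadjusted p under 0.05 and with 8 genes circled. RNASE1 and HPSE lie far down in both diets, LOC102190867 far up in both, and LOC102169730 and ADAMDEC1 are higher in Palmera on the control diet and lower under restriction.

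LOC102169730, an uncharacterised protein-coding gene near HTRA1 that was chosen after its values were seen, was the gene called under restriction and for the interaction. It had 1.25, 1.09 and 0.989 CPM in MC and 2.38, 2.22 and 2.58 CPM in PC, against 7.2, 9.82 and 7.43 CPM in ME and 0.838, 1.91 and 1.8 CPM in PE. Palmera lay above Majorera on the control diet (Log2FC 1.10, SE 0.29, adjusted p = 1) and below it under restriction (Log2FC -2.44, SE 0.28, adjusted p = 0.0131), without overlap in either. The pooled breed difference therefore had a Log2FC of -0.78 (SE 0.56, unadjusted p = 0.184). The interaction was not called without MC replicate 1, 2 or 3 or PC replicate 3, and the difference under restriction was not called without ME replicate 3.

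Some breed differences were those of 1 diet. RGS4, which switches off G protein signals, had 26.7, 15.7 and 10.1 CPM in MC and 62.8, 86.7 and 82.9 CPM in PC, without overlap. Under restriction it had 94.2, 33 and 69.4 CPM in ME and 75.5, 48.3 and 122 CPM in PE, with overlap. Its Log2FC was 2.15 (SE 0.45) on the control diet, 0.32 (SE 0.43) under restriction and 1.23 (SE 0.40, unadjusted p = 0.00839) when pooled, and the interaction had an unadjusted p of 0.0105. MC was the group that stood low, and ME, PC and PE overlapped. CIT, a kinase of cytokinesis, had 1.96, 1.16 and 1.09 CPM in MC, 4.1, 5.26 and 3.46 CPM in PC, 1.39, 0.812 and 1.22 CPM in ME and 0.9, 1.02 and 0.898 CPM in PE (interaction, unadjusted p = 0.000607). Here PC stood above the other groups, ME overlapped with MC and with PE, and MC lay above PE. The pooled Log2FC of CIT was 0.69 (SE 0.33, unadjusted p = 0.0544). Of the 7 measured genes of the cell cycle list, CIT was the 1 with a positive Log2FC, and 6 were negative. Of these, 1 had an unadjusted p under 0.05, against 15.5% of all joined genes on that side. It was KIF20A (Log2FC -1.88, SE 0.80), which was under 1 CPM in every library. The list had a median Log2FC of -1.41, which was -0.27 without ME replicate 2.

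The endothelial lipase gene LIPG and DGAT2, which catalyses the last step of triglyceride synthesis, had a Log2FC of opposite sign on the control diet. LIPG had 1.83, 2.32 and 0.918 CPM in MC and 7.54, 2.6 and 21.2 CPM in PC (Log2FC 2.63, SE 0.72), and DGAT2 had 2.98, 0.211 and 1.94 CPM in MC and 0.0938, 0.438 and 0.0314 CPM in PC (Log2FC -3.17, SE 0.90). Under restriction both genes were below 1 CPM in every library, with a Log2FC of 0.12 (SE 0.93) for LIPG and 0.06 (SE 1.11) for DGAT2. Of the 11 measured genes of milk fat synthesis, LIPG and DGAT2 were the 2 at an unadjusted p under 0.05, against 22.7% of all joined genes. The list had a median Log2FC of 0.38, with -0.02 on the control diet, 0.98 under restriction and a range of 0.13 (without PC replicate 1) to 0.54 (without ME replicate 1) when single libraries were left out. It was 0.16 without ME replicate 2.

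Milk synthesis itself showed no gene past the threshold for breed. The 6 measured milk protein genes had Log2FC values of 0.00 (CSN3) to 0.65 (LPO, lactoperoxidase) and a median of 0.20, and none had an unadjusted p under 0.05. The median ranged from -0.11 (without PE replicate 2) to 0.41 (without ME replicate 1). CSN1S1, the alpha-s1-casein gene, had 384 to 1498 CPM (median 1006) in Majorera and 635 to 2133 CPM (median 1031) in Palmera (Log2FC 0.32, SE 0.28, unadjusted p = 0.26). LALBA, the regulatory subunit of lactose synthase, had 1569 to 18305 CPM (median 7926) in Majorera and 2367 to 20483 CPM (median 7874) in Palmera (Log2FC 0.22, SE 0.34, unadjusted p = 0.536). The 7 measured genes of cholesterol synthesis had a median of 0.11, and none had an unadjusted p under 0.05. Their median was -0.21 on the control diet and 0.44 under restriction, and it changed sign to -0.03 without ME replicate 2.

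Of the gene lists, the fibroblast and matrix list held the most members at a lower level in Palmera. It was written with earlier results of these data known. It holds POSTN, CPXM2 and CD109, which the study reported higher in MC than in PC. All 15 measured fibroblast and matrix genes, of 29 on the list, had a negative Log2FC with the main scaling, while 2 turned positive when TMM factors came from the joined genes. Of the 15 genes, 9 had an unadjusted p under 0.05, against 15.5% of all joined genes on that side, and none had an adjusted p under 0.05. This share is not independent of the earlier results with which the list was written. The median Log2FC was -0.83, against -0.08 over all joined genes, with -0.93 on the control diet and -0.58 under restriction. Without ME replicate 2 and PC replicate 3 it was -0.53. The summed level of the 15 genes was 164 to 676 CPM in MC, 135 to 239 in PC, 87 to 279.9 in ME and 86.5 to 96.4 in PE CPM, with MC replicates 1 and 2 at the high end.

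POSTN, the matrix protein periostin, had the largest difference of the group. It had 2.57, 13.8 and 6.21 CPM in MC and 0.594, 0.907 and 0.314 CPM in PC, and 0.571, 6.46 and 0.359 CPM in ME and 1.1, 0.17 and 0.356 CPM in PE (Log2FC -2.88, SE 0.72, unadjusted p = 0.00137, adjusted p = 0.705). The control groups did not overlap, and ME replicate 2 was the only ME library above all of PE. CD109, a cell surface co-receptor for TGF-beta, had 1.85 to 5.58 CPM (median 3.38) in Majorera and 0.782 to 2.76 CPM (median 1.11) in Palmera (Log2FC -1.37, SE 0.37, unadjusted p = 0.00222). LUM, the collagen-binding proteoglycan lumican, had 4.99 to 20.2 CPM (median 15.7) and 2.41 to 13.4 CPM (median 6.74) (Log2FC -0.95, SE 0.34, unadjusted p = 0.0133). COL1A1, a chain of type I collagen named here after its values were seen, had 21.2 to 338 CPM (median 74.2) and 13 to 80.1 CPM (median 31.5) (Log2FC -1.40, SE 0.51, unadjusted p = 0.0164), with the highest level in MC replicate 2. The part of the share of stroma in each biopsy was not tested. Besides these 4, TNC, ASPN, SPARC, MFAP5 and DPT, named after their values were seen, had an unadjusted p under 0.05.

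Smooth muscle, fat and vessel markers gave smaller lists. DES, the intermediate filament of muscle, had 5.19 to 25 CPM (median 10.4) in Majorera and 5.07 to 8.23 CPM (median 5.4) in Palmera (Log2FC -1.09, SE 0.36, unadjusted p = 0.00924), and ACTG2, a smooth muscle actin, had 4.69 to 29.7 CPM (median 15.4) and 2.54 to 19.5 CPM (median 5.74) (Log2FC -0.75, SE 0.28, unadjusted p = 0.0164). Of the 6 measured genes of myoepithelial and smooth muscle cells these 2 were the ones at an unadjusted p under 0.05, against 15.5% of all joined genes on the lower side, and the list had a median Log2FC of -0.21. ADIPOQ, the adipocyte hormone adiponectin, had 8.73, 5.52 and 8.44 CPM in MC against 0.563, 3.72 and 3.4 CPM in PC, and 0.546, 0.275 and 0.464 CPM in ME against 0.164, 0.306 and 0.15 CPM in PE (Log2FC -1.40, SE 0.39, unadjusted p = 0.00278). The control groups did not overlap for ADIPOQ and the restricted groups did. Of the 4 measured adipocyte genes, ADIPOQ and LEP (Log2FC -2.84, SE 1.08) had an unadjusted p under 0.05, against 15.5% of all joined genes on that side. CIDEC had a Log2FC of -0.86 (SE 0.68) and PLIN4 one of 0.20 (SE 0.32). LEP rests on few reads, with 0.257, 0.0703 and 0.0353 CPM in MC, 0.0313 CPM in PC replicate 1 and 0 in every other library. The median of the 4 was -1.81 on the control diet and 0.40 under restriction, where LEP entered with a Log2FC of 0. Of the 17 endothelial genes on the list 4 were measured, and 3 of them had an unadjusted p under 0.05 (15.5% of all joined genes on that side) and were lower in Palmera: the adhesion molecules SELP (Log2FC -1.33, SE 0.43) and VCAM1 (Log2FC -1.33, SE 0.47) and the chemokine receptor DARC (Log2FC -1.44, SE 0.58). The fitted differences of the 3 genes were further from 0 under restriction, for VCAM1 a Log2FC of -2.28 (SE 0.57) against -0.37 (SE 0.56) on the control diet (interaction, unadjusted p = 0.0327), and ME replicate 2 held the highest level of each, at 9.53, 3.62 and 12.2 CPM. The other measured endothelial gene, PROX1, went the other way, with a Log2FC of 0.58 (SE 0.43, unadjusted p = 0.198). Without ME replicate 2 the median Log2FC of the 4 genes went from -1.33 to -0.73. The endothelial list was written with earlier results of these data known, and the study had reported DARC and SELP lower in PE than in ME.

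All 14 measured macrophage genes, of 28 on the list, had a negative Log2FC under every scaling, with a median of -0.75. Over all joined genes 55.4% were negative. Of the 14 genes, 7 had an unadjusted p under 0.05, against 15.5% of all joined genes on that side, and none had an adjusted p under 0.05. The list was written with earlier results of these data known, and the study had reported its member ADAMDEC1 higher in ME than in PE. The median Log2FC of the 14 genes was -0.14 on the control diet and -1.18 under restriction, and it was -0.32 without ME replicate 2. The 14 genes summed to 89.3 to 119 CPM in MC, 78.1 to 128 in PC, 158 to 585 in ME and 106 to 189.7 in PE. CD68, a lysosomal protein that defines the type, was present in every library, with 14.4, 44.9 and 19.4 CPM in ME against 8.98, 5 and 10.8 CPM in PE, and 6.32, 4.54 and 5.86 CPM in MC against 7.13, 3.35 and 3.49 CPM in PC (Log2FC -0.99, SE 0.35, unadjusted p = 0.0138). ADAMDEC1, a protease-like protein of tissue macrophages, had 0.819, 7.63 and 2.93 CPM in ME and 0.123, 0.34 and 0.561 CPM in PE (restricted groups, Log2FC -3.47, SE 0.71; interaction, unadjusted p = 0.00362). GPNMB, a glycoprotein of macrophages that take up lipid, had 9.04, 27.1 and 11.5 CPM in ME and 4.81, 2.11 and 6.06 CPM in PE (Log2FC -1.12, SE 0.43, unadjusted p = 0.0205 when pooled).

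The list of 35 interferon-stimulated genes had 3 measured members, all with a negative Log2FC and an unadjusted p under 0.05 (15.5% of all joined genes on that side). OAS1, an antiviral oligoadenylate synthetase, had 0.989 to 6.7 CPM (median 1.48) in Majorera and 0.545 to 1.55 CPM (median 0.879) in Palmera (Log2FC -1.44, SE 0.48, unadjusted p = 0.00886). MX1, an antiviral GTPase, had 1.83 to 8.79 CPM (median 3.26) and 1.16 to 3.11 CPM (median 2.1) (Log2FC -1.11, SE 0.40, unadjusted p = 0.015). ISG15, a ubiquitin-like modifier, had 0.199 to 2.69 CPM (median 0.704) and 0.219 to 0.486 CPM (median 0.361) (Log2FC -1.55, SE 0.58, unadjusted p = 0.0177). In each of the 3 genes MC replicate 1 and ME replicate 3 were the highest libraries, and the other 4 Majorera libraries lay within or near the range of Palmera. The exact permutation tests gave p = 0.07 for OAS1, 0.095 for MX1 and 0.135 for ISG15 (two-sided). Besides the list, OAS3, named after its values were seen, had a Log2FC of -1.50 on the control diet and -1.62 under restriction (pooled, unadjusted p = 0.00757), whereas the chemokine gene given in the tables as IP-10, named likewise, had 0.79 and -2.19.

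**Figure D4:**
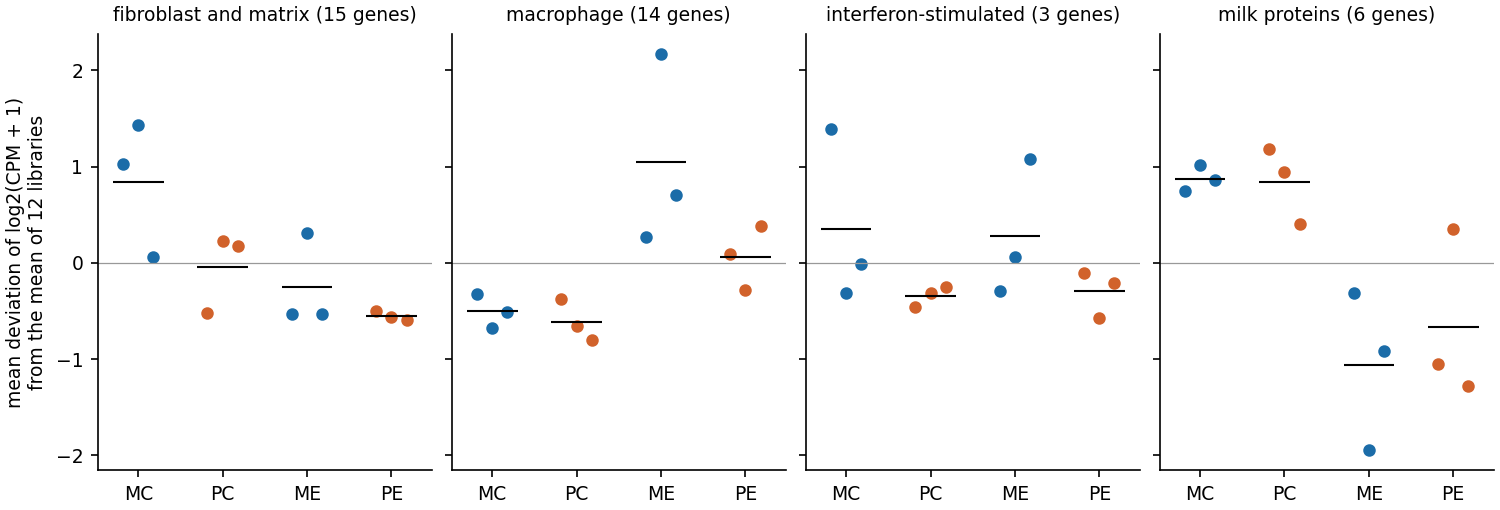
Mean deviation of log2(CPM + 1) from the mean of the 12 libraries for the measured members of 4 gene lists, in each library by group, with Majorera in blue, Palmera in orange and a line at the mean of 3. ME replicate 2 is at 2.17 for macrophage genes and -1.95 for milk proteins, MC replicates 1 and 2 at 1.02 and 1.43 for fibroblast and matrix genes, and the interferon-stimulated genes are high in MC replicate 1 and ME replicate 3.

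Secreted defence genes did not share a direction. Besides RNASE1, PIGR, the receptor that carries polymeric immunoglobulins into milk, was higher in Palmera by its values, with 211 to 867 CPM (median 322) in Majorera and 351 to 1619 CPM (median 516) in Palmera (Log2FC 0.90, SE 0.30, unadjusted p = 0.00889), and its Log2FC was alike in both diets at 0.91 (SE 0.44) and 0.88 (SE 0.44). S-LZ, a lysozyme, had 0.494 to 10.02 CPM (median 1.76) in Majorera and 0.438 to 1.03 CPM (median 0.731) in Palmera (Log2FC -1.72, SE 0.60, unadjusted p = 0.0124), with ME replicate 2 far above the other libraries. VNN1, a pantetheinase on the neutrophil list, had 0.492 to 3.48 CPM (median 1.25) and 0.219 to 1.27 CPM (median 0.652) (Log2FC -1.14, SE 0.28, unadjusted p = 0.0011) without overlap within either diet, while the other 6 measured neutrophil genes had a positive Log2FC and an unadjusted p above 0.05. NKG7, a granule protein of cytotoxic lymphocytes, had 0.879 to 4.28 CPM (median 1.73) and 0.688 to 1.87 CPM (median 1.08) (Log2FC -0.75, SE 0.22, unadjusted p = 0.00388).

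Heat shock genes and the list of G protein signalling regulators, which also held the channel subunit gene GABRB1, were divided as well. HSPB8, a small heat shock protein, had 0.968 to 2.65 CPM (median 1.67) in Majorera and 0.282 to 1.13 CPM (median 0.742) in Palmera (Log2FC -1.24, SE 0.36, unadjusted p = 0.00396). HSP70.1, an inducible chaperone, was high in PE replicates 1 and 2 alone, at 71.6 and 85.4 CPM, and its Log2FC was 0.10 (SE 0.47) on the control diet and 1.81 (SE 0.47) under restriction. GABRB1, a subunit of the GABA receptor channel, had 0.155 to 2.32 CPM (median 0.786) in Majorera and 0.281 to 5.07 CPM (median 3.25) in Palmera (Log2FC 1.27, SE 0.57, unadjusted p = 0.0435), while RGS2, of the same family of G protein regulators as RGS4, had 2.85 to 56.3 CPM (median 7.85) and 3.72 to 12.7 CPM (median 6.34) (Log2FC -1.04, SE 0.47, unadjusted p = 0.0424). ASB11, a gene of the skeletal muscle list, had 0.573 to 58.3 CPM (median 6.97) in Majorera and 0.409 to 8.48 CPM (median 1.23) in Palmera (Log2FC -2.82, SE 0.98, unadjusted p = 0.012), with MC replicate 3 at 58.3 CPM. No other gene of that list measured under its listed symbol had an unadjusted p under 0.05. TTN is also on that list and was measured as LOC102173234, which had an unadjusted p under 0.05 and was higher in Palmera.

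**Figure D5:**
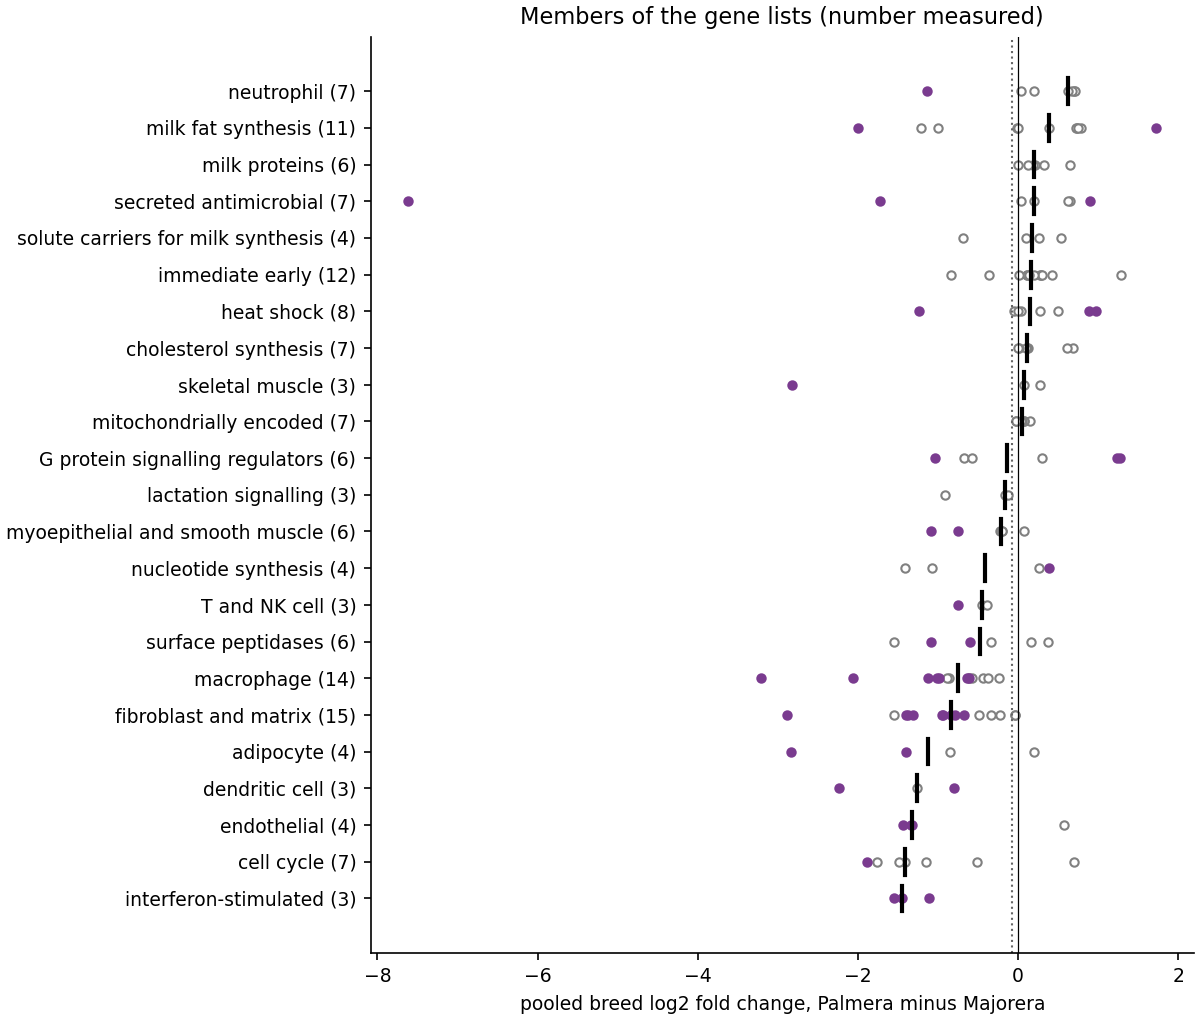
Pooled Log2FC of Palmera over Majorera (x axis) for the measured members of each gene list with at least 3 of them, with filled points at an unadjusted p under 0.05, a bar at the median of each list and a dotted line at the median of all joined genes (-0.08). Furthest to the left lie short lists: interferon-stimulated (median -1.44, 3 genes), cell cycle (-1.41, 7 genes), endothelial (-1.33, 4 genes), dendritic cell (-1.26, 3 genes) and adipocyte (-1.13, 4 genes). The fibroblast and matrix list and the macrophage list follow with medians of -0.83 and -0.75, and the milk protein list lies near 0.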

How the data were processed

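Mammary gland biopsies of 12 goats were sequenced as stranded, paired-end poly(A) libraries. The authors mapped them with Bowtie2 2.2.3 (goat assembly CHIR_1.0) and estimated counts per gene with RSEM 1.2.17. They compared pairs of groups in edgeR 3.2.4, and each deposited table holds the expected counts of its 6 libraries for those genes whose unadjusted p was under 0.05. The deposited tables also hold the authors' log2 fold changes, which were not used, and the authors' p-values with adjusted p-values, which were used only to count the genes tested, at most 15221 in a table.

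Expected counts of 1408 genes shared by the join were rounded to whole numbers (207 genes had values that were not whole) and fitted with the edgeR 4.0.16 quasi-likelihood F test, breed plus diet. Library sizes were the mapped reads given by the study times TMM factors over 1998 readable rows, of 24260, of the study's raw counts, and 846 of those rows, reaching 1 CPM in at least 3 libraries, set the prior of the dispersions. The p-values were adjusted over 15221 genes by Benjamini-Hochberg, taking genes outside the join to have larger p. Because joined genes were selected by p, no share describes all genes. Single-gene permutation tests were exact, two-sided and on log2(CPM + 1). Alternatives used DESeq2 1.42.0, other scalings, filters and libraries left out. Breed differences within diets and the interaction were fitted with a term for each of the 4 groups. The SE given for a quasi-likelihood Log2FC is its absolute value divided by the square root of the F statistic. Intervals of count ratios cover counting error only. Replicates are separate goats.

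The text names the genes called for breed and the genes with the smallest p up to 12 in each direction. It also names the 8 genes with the largest Log2FC among those whose breeds did not overlap, and RNASE1 and RGS4. The rule further took up to 3 members of each gene list with the smallest p. The text describes only some of these members and leaves several lists out. Other genes were named after their values were seen. The members and lists were chosen with earlier results of these data known. Members were matched by symbol alone, so that a member given under a LOC symbol was not counted. The fit was tested on simulated counts without a diet effect, with changes only in genes averaging at least 1 CPM. It recovered 56% of changes of 1 and 96% of changes of 1.5 on the log2 scale, with 50 genes each. Of 1208 unchanged genes it called 0. The simulation does not cover changes in genes of lower level, such as LOC102190867. RefSeq (ARS1.2) names were matched for 1340 genes, with no coordinates taken from it. No library was left out.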

Additional observations from a re-analysis of the deposited data

Results flagged for a closer look

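The breed difference of the uncharacterised gene LOC102169730 had opposite signs in the 2 diets. Its means were 1.11 ± 0.132 CPM in MC, 2.39 ± 0.179 in PC, 8.15 ± 1.45 in ME and 1.51 ± 0.587 in PE (SD, n = 3). The difference under restriction minus that on the control diet was -3.54 on the log2 scale (SE 0.40, edgeR adjusted p = 0.0115). Leaving out PC replicate 3 or any 1 of the MC libraries removed this call, with 0 genes then called for the interaction.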

How the results depend on the processing

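Numbers of called genes moved with the processing. The pooled breed count of 2 became 30 when mapped reads alone scaled the libraries (8 higher and 22 lower in Palmera, both main calls among them), 8 with DESeq2, 8 when p was adjusted over the joined genes alone, 1 with a replicate block (RNASE1 kept its call and LOC102190867 lost it, adjusted p = 0.0659), and 0 with a filter of at least 1 CPM in at least 6 libraries, which drops RNASE1 and LOC102190867, with a dispersion prior from the joined genes, or with no diet covariate. Left-out libraries gave 1 to 3. Where 0 genes were called, the cause was not tested beyond the filter.

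At an unadjusted p under 0.05, the filter left 56 higher and 114 lower genes, the prior from the joined genes 67 higher, the omission of ME replicate 2 and PC replicate 3 (chosen after seeing the data) 118 lower, and single omissions 79 to 132 higher and 136 to 295 lower. The 13 genes without overlap became 6 with mapped reads alone, 6 with the filter, 22 without both libraries and 14 to 21 with single omissions. The diet count of 435 became 266 with the filter, 36 with the prior from the joined genes, 1017 when adjusted over them, 262 when adjusted over all gene rows, 241 without both libraries and 207 to 528 with single omissions.

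The control-diet count of 1 became 0 with the filter, 2 without both libraries and 6 with DESeq2, and stayed 1 with every single omission. The restricted count of 1 became 9 with mapped reads alone, 0 with the prior from the joined genes, 13 when adjusted over them, 3 without both libraries, 12 with DESeq2 and 0 to 4 with single omissions. The interaction count of 1 became 4, 0, 8, 0 and 8 in that order, and 0 to 2.

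For 70 named genes, 1537 of 1577 alternative values kept their sign and side of the threshold, 10 lost the call and 29 gained it. Only 2 of these genes, RNASE1 and LOC102190867, were called in the main fit, and all 10 lost calls were theirs. The other genes had no call to lose, so that the count kept says little about how stable a call is. LALBA turned to a Log2FC of -0.0811 without PE replicate 2 (range -0.0811 to 0.416). Of 664 list medians, 56 moved by more than the spread. Same-numbered libraries did not deviate together (correlations -0.32 to 0.23, mean -0.02 over 18 pairs), and 3 of 12 correlated best with their own number. The labels do not say what the numbers mark, and these few correlations cannot exclude a factor shared by number. Depth limits the genes under 1 CPM most, and RNASE1 counts may include close copies. The share of higher genes was 41.5% with TMM over the joined genes.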
